A study of Mus musculus with 24 samples.

Results

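Skin and the dorsal root ganglia (DRG, the clusters beside the spinal cord that hold the cell bodies of sensory neurons) were compared as they are in control mice, without the libraries of the injected model. 12 of the 24 libraries of the series entered, 6 from control skin and 6 from control DRG, taken by the tissue and the word control in their titles, with all 45777 genes of the table. The series concerns a rosacea-like skin inflammation made by injecting the peptide LL37 and its treatment with gabapentin. Its description gives female BALB/c mice aged 6 weeks, and the labels give no genotype or allele. What the control animals were injected with, whether any received gabapentin, from which skin site and which ganglia the tissue came, and how many animals stand behind a library are not given in the sources used here. Nothing in them states that libraries of a group came from different animals, so the p-values below measure the spread between these libraries, which may be technical.

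Skin holds a renewing epidermis of keratinocytes, with hair follicles, glands, connective tissue, fat, vessels and resident immune cells. Sensory neurons of the DRG send one branch into that skin and the other into the spinal cord, so messenger RNA in the cell body lies in the ganglion while much of the protein works in nerve endings far away. Satellite glia wrap the cell bodies, and Schwann cells wrap the fibres. Growth factors, cytokines and peptides made in one tissue can therefore act on receptors whose RNA is found in the other, and the comparison asked which genes, ligands and receptors belong to which side. In bulk tissue, fewer cells of a type and less RNA per cell cannot be told apart.

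Levels are CPM, the counts of a gene scaled to the library total with TMM factors, given as the lowest to the highest of the 6 libraries of a tissue with the median. Differences are log2 fold changes of skin minus DRG from edgeR's quasi-likelihood (QL) test, with the standard error (SE) of the difference between mean log2 CPM. A gene was called higher in a tissue where its p, adjusted by Benjamini-Hochberg (BH), was under 0.05, and "over 4-fold" when edgeR's glmTreat passed the same limit against a 4-fold change. Total counts were 45238735 to 64547448 per library in skin and 52273676 to 63544026 in DRG, so 3 counts over a tissue's 6 libraries correspond to 0.00916 and 0.00878 CPM. That floor stands in for a tissue with no counts and covers counting error only.

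Libraries of a tissue were much more alike than the tissues, with Spearman correlations across genes of 0.954 to 0.995 within skin, 0.985 to 0.995 within DRG and 0.638 to 0.676 between them. 3 libraries stood apart. Skin control 2 had 1354 CPM summed over the hair follicle markers against 36559 to 56182 CPM in the other 5, together with the highest summed muscle markers (15832 against 4487 to 9503 CPM). DRG control 5 had 747 CPM of spinal cord markers against 54.6 to 116 CPM. DRG control 6 had the highest summed endothelial markers (621 against 252 to 327 CPM), meningeal markers (2359.6 against 747 to 1708 CPM) and red blood cell genes (580.5 against 212 to 430.3 CPM). Where computed, results that rest on these libraries are given with and without them.

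**Figure D1:**
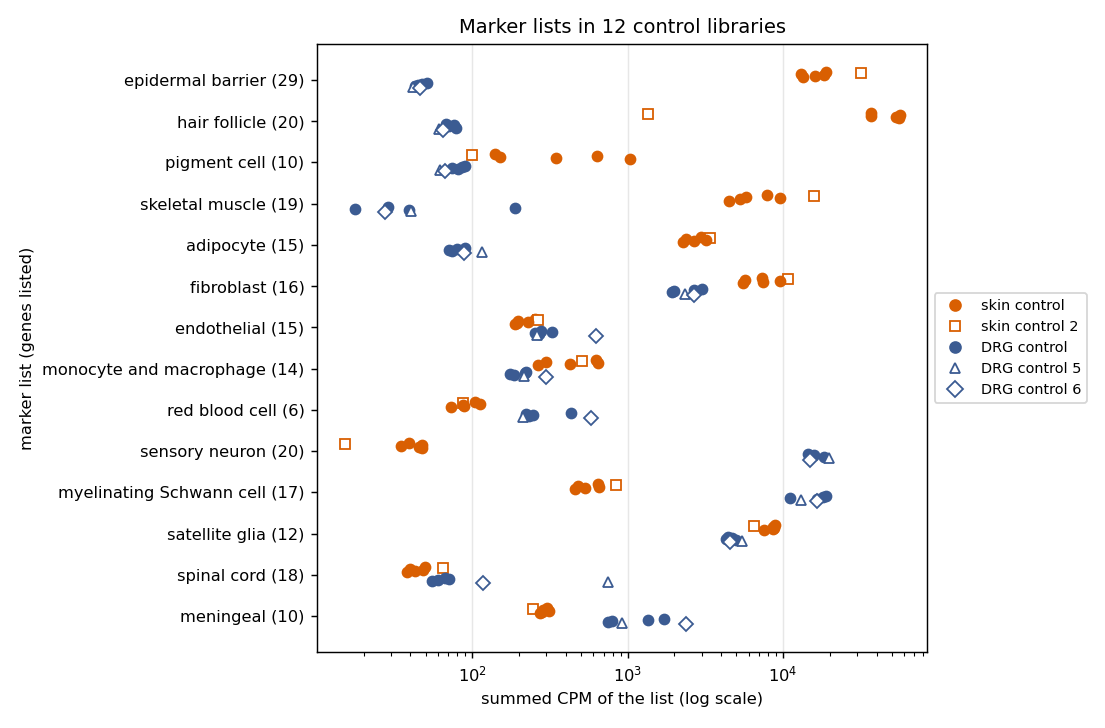
Summed TMM-normalised CPM (log axis) of 14 marker lists, one point per library, with control skin and control DRG in different colours. Skin control 2 lies at 1354 CPM for hair follicle markers, far below the other skin libraries, and DRG control 5 at 747 CPM for spinal cord markers, above the other DRG libraries.

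Most genes differed between the tissues, so a call by itself says little. Of 20448 genes tested, 83.3% were called: 8456 (41.4%) were higher in skin, 8587 (42%) were higher in DRG and 3405 were not called. Over 4-fold, 2494 (12.2%) were higher in skin and 3130 (15.3%) in DRG, and these shares are the background for every list below. Without the 3 libraries that stood apart the counts over 4-fold were 2861 and 3234, of which 2429 and 3038 were among the genes above. The median log2 difference over all genes tested was -0.01. A shared core was large: 12900 genes reached 1 TPM (the authors' level scaled to transcript length and library total) in all 12 libraries. Libraries of skin varied more among themselves than those of DRG, with a median SD of log2 CPM of 0.178 over 8380 genes at 20 CPM or more, against 0.133 over 8376 genes in DRG. Among the genes named below, those given as exceptions to their list (Itga6, Itgb4, Lgr5, Sostdc1, Klf5, Mfap5, Lox, Lyve1, Prox1, Flt4, Cd68, Vamp2, Egr2, Pvalb, Maf, Fa2h, Retnlg, Kcnk2, Zbtb46, Mertk and Csn3), and Hoxb8 and Hoxd10, were chosen after their values were seen.

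The tissues' most abundant transcripts per length overlapped in the mitochondrial genes. Mitochondrial COX1, a subunit of cytochrome oxidase, was at 13922 to 25754 TPM (median 15221) in skin and 17173 to 25043 TPM (median 22054) in DRG. Outside the mitochondrion, skin was led by Krt71, a keratin of the inner root sheath of the hair, at 373 to 12432 TPM (median 9720.1), by the lipid carrier Apoe at 3542 to 10610.3 TPM (median 6995) and by the translation factor Eef1a1 at 5782 to 7025 TPM (median 6385). Skin control 2 holds the lowest of those Krt71 values. Among the most abundant in DRG was Sncg, the neuronal gamma-synuclein, at 5531 to 7809.9 TPM (median 6077).

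**Figure D2:**
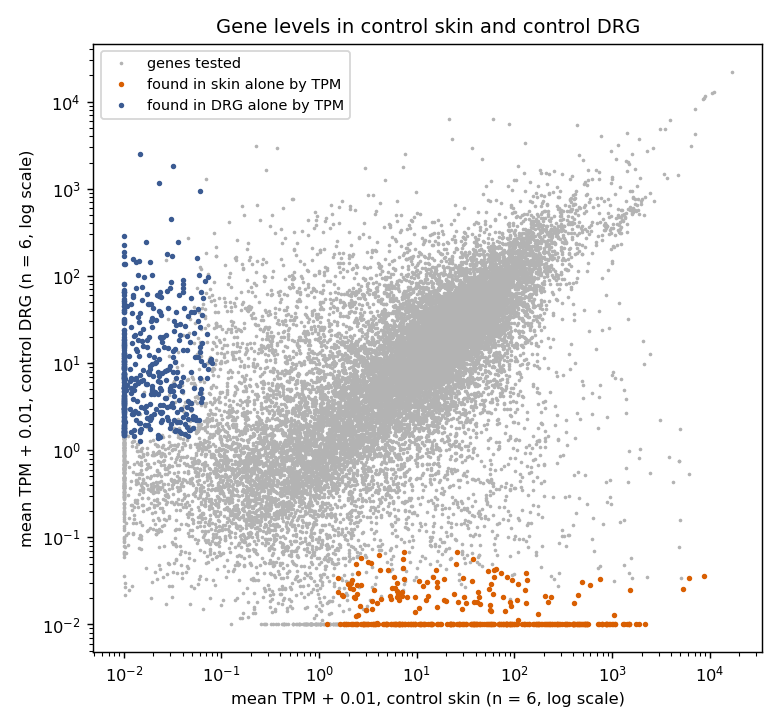
Mean deposited TPM over 6 control skin libraries against the mean over 6 control DRG libraries for each gene tested, with 0.01 TPM added and both axes on a log scale. Genes at 1 TPM or more in every library of one tissue and under 0.1 TPM in every library of the other are coloured, 377 for skin along the lower edge and 473 for DRG along the left edge.

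A stricter view counted genes at 1 TPM or more in all 6 libraries of one tissue and under 0.1 TPM in all 6 of the other. Skin had 377 such genes, 312 of them protein coding, among them 22 keratins, 35 keratin-associated proteins and 27 cornified envelope proteins of the Lce and Sprr families. DRG had 473, 346 protein coding and 101 long noncoding. Among them were 7 genes of the Mrgpr family, which include pseudogenes such as Mrgprb12-ps as well as receptors. There were also 16 potassium channel genes, accessory genes such as Kcnip1 and Kcnmb2 included, and 6 serotonin receptors. Without the 3 libraries that stood apart the counts were 527 and 555, and fewer libraries can only keep or raise such counts. Members of the keratin-associated, Sprr, Lce, Mrgpr and globin families are near-identical copies between which counted reads can be split, so values of single members are uncertain.

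Promoters of the genes found in one tissue alone differed in their letters, a property that the choice of tissue did not use. RefSeq promoters of GRCm38.p6 hold 300 bases (250 before and 50 after the start), and genes with 1 listed promoter were read. The letters TATAAA or TATATA, the core of the TATA box that places the start of transcription in some promoters, were searched on the gene's strand between 45 and 16 bases before the start. They stood in 67 of 236 promoters of protein-coding genes found in skin alone (28.4%), in 8 of 207 found in DRG alone (3.86%) and in 3.24% of 10420 protein-coding genes tested. Without the keratin, keratin-associated, Lce and Sprr families, whose members are related copies, the skin share was 32 of 165 (19.4%). Among all genes over 4-fold higher, the shares were 13.2% for skin and 2.75% for DRG, and over all 22862 promoters of the same length it was 3.53%. The median number of CG pairs in a promoter was 2 for skin alone, 12 for DRG alone and 19 for all protein-coding genes tested. GGGCGG, the letters of a GC box, stood on either strand in 14.8% of skin-alone, 44.4% of DRG-alone and 59.7% of all protein-coding promoters. TGANTCA, the letters bound by AP-1 factors and equal on both strands, stood in 19.1%, 4.35% and 5.53%. These shares are descriptions of the letters and carry no test.

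The 100 bases before the start are shown for genes among the 10 largest differences in each direction, and for Tac1, which is not among them. They let the letters behind these shares be read, with a TATAAA or TATATA match in that window in capitals. The first 3 belong to skin, the inner root sheath keratin Krt71 (chr15:101743098-101743197, minus strand), the hair shaft keratin Krt34 (chr11:100041555-100041654, minus strand) and cornulin Crnn (chr3:93144689-93144788, plus strand), each with a match. Krt5 (chr15:101712906-101713005, minus strand), the basal keratinocyte keratin, is a skin gene without either match in the window. The last 4 belong to DRG, the nociceptor receptor Mrgprd (chr7:145314735-145314834, plus strand), the sodium channel Scn9a (chr2:66634963-66635062, minus strand), the nociceptor factor Prdm12 (chr2:31639937-31640036, plus strand) and the substance P precursor Tac1 (chr6:7554961-7555060, plus strand), none with a match in the window. Coordinates are of GRCm38.p6 with the strand, and every sequence runs 5′ to 3′ on its gene's strand.
Krt71: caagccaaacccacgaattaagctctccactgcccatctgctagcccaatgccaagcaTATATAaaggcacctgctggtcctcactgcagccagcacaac
Krt34: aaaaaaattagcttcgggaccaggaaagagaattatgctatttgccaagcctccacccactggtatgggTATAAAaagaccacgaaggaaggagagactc
Crnn: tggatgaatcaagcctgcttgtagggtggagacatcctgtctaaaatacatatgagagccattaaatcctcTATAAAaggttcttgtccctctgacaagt
Krt5: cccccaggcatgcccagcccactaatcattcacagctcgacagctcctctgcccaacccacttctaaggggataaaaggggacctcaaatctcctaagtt
Mrgprd: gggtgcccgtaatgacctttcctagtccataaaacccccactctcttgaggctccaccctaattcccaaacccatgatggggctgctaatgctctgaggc
Scn9a: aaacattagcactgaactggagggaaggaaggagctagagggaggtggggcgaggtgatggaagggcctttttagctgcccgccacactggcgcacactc
Prdm12: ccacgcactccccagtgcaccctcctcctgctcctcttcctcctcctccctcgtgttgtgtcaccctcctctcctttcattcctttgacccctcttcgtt
Tac1: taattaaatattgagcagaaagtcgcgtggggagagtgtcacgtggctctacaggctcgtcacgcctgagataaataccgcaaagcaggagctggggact
Over their 300 bases, the skin genes Krt71, Krt34, Crnn and Krt5 hold 4, 4, 0 and 6 CG pairs. The DRG genes Mrgprd, Scn9a, Prdm12 and Tac1 hold 2, 9, 17 and 22, so the 2 sets overlap.

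Keratinocyte genes set skin apart by wide margins. Of 12 basal keratinocyte markers tested, 10 were over 4-fold higher in skin, and all 29 of 29 markers of the differentiating barrier were, against the background of 12.2%. Their median log2 differences were 8.27 and 11.75. Krt5, which forms the keratin network of basal cells together with Krt14, was at 4238 to 6568 CPM (median 5662) in skin and 0 to 0.047 CPM (median 0) in DRG. Krt14 itself was at 2813 to 5076 CPM (median 3765) in skin and 0 to 0.242 CPM (median 0.0831) in DRG, where it had 35 counts over the 6 libraries. Trp63, the transcription factor that keeps the epidermal stem cell layer, was at 419 to 473 CPM (median 435) and 1.09 to 1.68 CPM (median 1.2) (log2 difference 8.40 ± 0.09 SE, BH-adjusted p = 5.6e-14, edgeR QL). Every skin library lay above every DRG library for these genes. The basal integrins were the exception: Itga6, which anchors basal cells to the basement membrane and is also made by Schwann cells, was at 140.0 to 243 CPM (median 187) in skin and 109.7 to 212 CPM (median 178) in DRG, overlapping, and was not called (log2 difference 0.16 ± 0.20 SE, BH-adjusted p = 0.41, edgeR QL). Its partner Itgb4 was called higher in skin but not over 4-fold (log2 difference 1.70 ± 0.18 SE, BH-adjusted p = 5.7e-07, edgeR QL).

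The cornified layer is built from filaggrins, loricrin and crosslinking enzymes, and its genes were close to absent from DRG. Klk7, a protease that loosens the outer layer, was at 498 to 897 CPM (median 662) in skin and had 7 counts over the 6 DRG libraries. Spink5, the inhibitor that restrains the skin's kallikrein proteases, was at 491 to 891 CPM (median 626) in skin with no counts in DRG, at least 71534-fold higher against the floor. The protease and its inhibitor were thus seen almost or wholly on one side at this depth. Sbsn, suprabasin, was at 994 to 2105 CPM (median 1319.9) and 7.4 to 9.04 CPM (median 8.71). Krt10, the keratin of the layers above the basal one, was at 1436 to 6993 CPM (median 2509) in skin and 1.63 to 2.58 CPM (median 1.95) in DRG (log2 difference 10.53 ± 0.36 SE, BH-adjusted p = 3.5e-10, edgeR QL). Krt1, its partner, was at 638 to 3831 CPM (median 1339) and 0.298 to 0.612 CPM (median 0.427). Skin control 2 was the highest skin library for Krt10 and Krt1, at 6993 and 3831 CPM, and had the highest summed barrier markers (31879.7 against 12961 to 18764 CPM).

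Hair follicle genes were among the largest differences and also spread widely within skin. Of 20 listed markers, 19 were in the table (Krt85 was not used here), and 16 of the 19 tested were over 4-fold higher in skin, with or without the 3 libraries that stood apart. Krt72, a keratin of the inner root sheath, was at 1.73 to 3223 CPM (median 1839) in skin with no counts in DRG. Its lowest value is skin control 2, and the other 5 libraries lay at 1226 to 3223 CPM. Tchh, the trichohyalin that hardens the root sheath, was at 404 to 24906 CPM (median 19111) in skin and 0.819 to 1.6 CPM (median 1.42) in DRG, again with the lowest value in skin control 2 (404 CPM). Krt86 and Krt34, keratins of the hair shaft, were at 18.7 to 1252 CPM (median 1002) and 15.9 to 951 CPM (median 773) in skin, with no counts in DRG for either gene. Even skin control 2 lay above every DRG library for Krt72, Tchh, Krt86 and Krt34, so the direction does not rest on it. 3 follicle genes did not follow. Lgr5, a stem cell receptor of the follicle, was higher in skin but not over 4-fold (51.9 to 96.9 CPM, median 66.8 against 18.1 to 26 CPM, median 23.5). Sostdc1 was not called (log2 difference 0.23 ± 0.26 SE, BH-adjusted p = 0.38, edgeR QL). Shh, the secreted hedgehog signal of the growing follicle, was higher in DRG at 13.2 to 15.8 CPM (median 15.1) than in skin at 0.319 to 12.4 CPM (median 4.71) (log2 difference -1.40 ± 0.70 SE, BH-adjusted p = 0.022, edgeR QL).

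Further genes among the largest differences towards skin were Krt6a at 1106 to 2243 CPM (median 1303), Crnn at 21.3 to 1171 CPM (median 905) and the trichohyalin-like Tchhl1 at 73.8 to 1121 CPM (median 1058), each with no counts in DRG. Krt6a, the keratin of activated epidermis and of the follicle's companion layer, was at 1106 CPM in skin control 2 and 1238 to 2243 CPM in the other skin libraries, while Crnn and Tchhl1 were at 21.3 and 73.8 CPM there, the lowest skin values.

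Sebaceous and pigment genes also belonged to skin. Of 10 sebaceous markers, 8 were over 4-fold higher in skin. Elovl3, a fatty acid elongase of the gland, was at 84.2 to 204 CPM (median 148) with no counts in DRG. Scd1 and Fasn, desaturase and synthase of fatty acids that glia also use for myelin, were higher in skin without passing 4-fold, and Scd1 was still at 671 to 843 CPM (median 791) in DRG against 2324 to 5006 CPM (median 3026) in skin. Of 10 pigment genes, 9 were tested and 8 were over 4-fold higher in skin, a count that was 3 with a filter at 1 CPM in 6 libraries. Dct, a melanin synthesis enzyme, was at 13.3 to 306 CPM (median 51.2) in skin and 0 to 0.629 CPM (median 0.354) in DRG. Skin was uneven here, with Dct at 306 CPM in skin control 6 and 23.3 CPM in skin control 2. Tyrp1, a related enzyme, was the exception, at 53.7 to 79.5 CPM (median 65.9) in DRG and 9.31 to 229 CPM (median 37.8) in skin, and was not called (log2 difference 0.19 ± 0.82 SE, BH-adjusted p = 0.8, edgeR QL). Without skin control 6 its log2 difference was -0.54. Of the other pigment genes, Pmel was at 0.444 to 1.22 CPM (median 0.684) and Tyr at 0 to 0.145 CPM (median 0.0256) in DRG.

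Transcription factors of the epidermis also lay on the skin side. Of 18 factors tested, 17 were over 4-fold higher in skin, with a median log2 difference of 7.41 (7.25 with genes at 0 in DRG at their bound). Zfp750, which drives epidermal differentiation, was at 148 to 232 CPM (median 218) in skin and 0.279 to 0.50 CPM (median 0.414) in DRG. Grhl1, a factor of barrier genes, was at 269 to 381 CPM (median 351) and 1.15 to 2.13 CPM (median 1.92). Klf5 was the member that was higher in skin without passing 4-fold (log2 difference 1.69 ± 0.16 SE, BH-adjusted p = 4e-07, edgeR QL).

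Skin also carried tissue beneath the epidermis. Of 19 skeletal muscle markers, 18 were over 4-fold higher in skin, and of 14 adipocyte markers tested 12 were. Fast myosin Myh1 was at 953 to 2821 CPM (median 1084) in skin and 0 to 5.17 CPM (median 0.296) in DRG, and skeletal actin Acta1 at 788 to 2901 CPM (median 1226) and 1.76 to 20.9 CPM (median 3.37). Skin control 2 held the highest values of both, 2821 and 2901 CPM. In DRG the highest values were those of DRG control 2, at 5.17 and 20.9 CPM. Myh7, the slow and cardiac myosin, went the other way, at 0.359 to 1.53 CPM (median 0.53) in DRG and 0 to 0.109 CPM (median 0.0198) in skin. The fat cell protease adipsin, Cfd, was at 238 to 364 CPM (median 326) in skin and 0.188 to 1.44 CPM (median 0.559) in DRG, and the fatty acid binding protein Fabp4 at 618 to 686 CPM (median 664) and 3.57 to 6.84 CPM (median 4.6). How far muscle and fat in the dissected skin add to other differences was not tested.

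Connective tissue, vessel and macrophage genes were read in both tissues. Of 16 fibroblast markers 5 were over 4-fold higher in skin, 11 were called higher in skin at any size and 2 higher in DRG. Collagen Col3a1 was at 1927 to 3778 CPM (median 2488) in skin and 351 to 647 CPM (median 519.9) in DRG (log2 difference 2.43 ± 0.21 SE, BH-adjusted p = 9.5e-08, edgeR QL). Decorin Dcn overlapped, at 457 to 1154 CPM (median 662) and 421 to 699 CPM (median 529.8), and was not called (log2 difference 0.36 ± 0.23 SE, BH-adjusted p = 0.13, edgeR QL), but it was called higher in skin without skin control 6 (log2 difference 0.47, edgeR QL, BH-adjusted p = 0.0463). Mfap5 and Lox, a microfibril protein and a collagen crosslinker, were the members higher in DRG (40.5 to 61.6 CPM, median 55.3 against 11.2 to 20.3 CPM, median 14.6 for Mfap5). None of 15 endothelial markers passed 4-fold, 3 were called higher in skin and 7 in DRG by edgeR, with a median log2 difference of -0.22. The 3 higher in skin were Lyve1, Prox1 and Flt4, genes of lymphatic vessels, with Prox1 at 2.4 to 5.86 CPM (median 3.22) in skin and 0.291 to 2.35 CPM (median 0.613) in DRG. The call of Lyve1 (edgeR QL, BH-adjusted p = 0.028) was lost, with p up to 0.065, when skin control 1, 4 or 5 or DRG control 2, 4 or 5 was left out, and with limma on log2(TPM + 0.1), at a BH-adjusted p of 0.17. Vwf, made by blood vessel endothelium, was higher in DRG at 29.4 to 188 CPM (median 44.7) than in skin at 14.6 to 25.5 CPM (median 19.8), with the highest value in DRG control 6. Of 10 mural cell markers, 7 were called higher in skin at any size and 2 in DRG. Des and Notch3 were over 4-fold higher in skin, while Rgs5, a pericyte gene, was higher in DRG (164 to 261 CPM, median 231 against 37.7 to 66.4 CPM, median 44.7). Des is also a skeletal muscle gene.

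Immune lists differed in direction. 10 of 13 dendritic and Langerhans cell genes, 5 of 11 mast cell genes tested and 5 of 10 T cell genes tested were over 4-fold higher in skin, but only 1 of 14 macrophage genes, Cd68, under the background share. At any size 10 macrophage genes were called higher in skin and 2 in DRG. The median of their summed CPM was 467 in skin and 216 in DRG. Of 8 neutrophil genes, 4 were over 4-fold higher in DRG, 1 was in skin and 3 were not called. Summed over the neutrophil list, the tissues overlapped, with a median of 41.4 CPM in skin and 42.4 CPM in DRG. Langerin Cd207, the marker of Langerhans cells, was at 13.4 to 31.9 CPM (median 23.1) in skin and 0 to 0.12 CPM (median 0.103) in DRG. Csf1r, the receptor that macrophages need to survive, was at 37.9 to 87.8 CPM (median 76.6) in skin and 17.6 to 33.6 CPM (median 27.1) in DRG and did not pass 4-fold (log2 difference 1.36 ± 0.27 SE, BH-adjusted p = 0.00012, edgeR QL). The mast cell protease Mcpt4 was at 12.2 to 28.1 CPM (median 15.8) and 0.919 to 2.3 CPM (median 1.99). Higher in DRG were 2 dendritic and Langerhans cell genes, Flt3 and Zbtb46, 2 macrophage genes, Cx3cr1 and Mertk, and 1 mast cell gene, Kit. Kit, the stem cell factor receptor, was at 84.5 to 103 CPM (median 92.6) in DRG and 8.79 to 40.6 CPM (median 22.4) in skin, and Flt3 at 15.9 to 20.4 CPM (median 18.2) and 1.21 to 3.03 CPM (median 1.72). Cx3cr1, the fractalkine receptor of resident macrophages, was at 3.67 to 6.97 CPM (median 5.35) in DRG and 0.96 to 1.83 CPM (median 1.19) in skin. Zbtb46, a transcription factor of dendritic cells, was at 16.5 to 19.5 CPM (median 18.7) in DRG and 5.52 to 6.35 CPM (median 6.13) in skin, and Mertk, a receptor for dying cells, at 27.1 to 42.1 CPM (median 36) and 16.1 to 23.7 CPM (median 20.1).

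Sensory neuron genes defined the DRG side. All 20 of 20 sensory neuron markers and 24 of 25 genes of synaptic release were over 4-fold higher in DRG, against 15.3% of all genes tested. The median log2 differences were -11.30 (-10.46 with genes at 0 in skin at their bound) and -6.15. The neurofilament Nefl was at 2961 to 4254 CPM (median 3316) in DRG and had 2 counts over the 6 skin libraries. Stmn2, a microtubule regulator of growing axons, was at 1235 to 1459.5 CPM (median 1329.6) in DRG and 1.79 to 4.43 CPM (median 2.12) in skin (log2 difference -9.00 ± 0.20 SE, BH-adjusted p = 2.9e-12, edgeR QL). Tubb3, a neuronal tubulin, was still read in skin at 1.42 to 41.6 CPM (median 35.3) against 1803 to 2893 CPM (median 1902) in DRG, and its lowest skin value was skin control 2 (1.42 CPM), where the others lay at 26.2 to 41.6 CPM. Neurofilament and vesicle genes were almost absent from skin: Nefm had 11 and Snap25 6 counts over all skin libraries. Slc17a6, the vesicular transporter that loads glutamate in sensory neurons, was at 261 to 352 CPM (median 296) with no counts in skin, at least 32259.7-fold higher in DRG. Snap25, part of the vesicle fusion machinery, was at 989.7 to 1212 CPM (median 1131) in DRG. Vamp2 was the synaptic gene that did not pass 4-fold, at 291 to 355 CPM (median 336) in DRG and 73.4 to 109 CPM (median 87.5) in skin.

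The factors that specify sensory neurons were likewise on the DRG side, with 12 of 16 neuronal and glial factors tested over 4-fold higher there. Prrxl1, known as Drgx, was at 87.9 to 110.3 CPM (median 98.4) in DRG with 4 counts over the skin libraries, and Prdm12, needed to form nociceptors, was at 112 to 139 CPM (median 125) with no counts in skin. Pou4f1, known as Brn3a, was at 127 to 146 CPM (median 136) in DRG and 0.646 to 1.52 CPM (median 0.86) in skin. Runx1, which shapes non-peptidergic nociceptors and also acts in hair follicles and blood, was at 54.8 to 85.1 CPM (median 67.5) in DRG and 52.6 to 81.2 CPM (median 74) in skin and was not called (log2 difference 0.02 ± 0.13 SE, BH-adjusted p = 0.86, edgeR QL). Egr2, the myelination factor of Schwann cells that is also made in the follicle, was higher in skin (107 to 156 CPM, median 139 against 35.8 to 68.3 CPM, median 51.6, log2 difference 1.38 ± 0.17 SE, BH-adjusted p = 3e-06, edgeR QL).

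Sensory neurons fall into classes, and genes of each were found in DRG. 8 of 9 peptidergic nociceptor genes, 15 of 19 non-peptidergic and itch neuron genes and 11 of 17 touch and position sense genes were over 4-fold higher in DRG. Mrgprd, a receptor of non-peptidergic nociceptors, was at 259 to 309.6 CPM (median 299.8) with no counts in skin, at least 31677-fold higher in DRG. P2rx3, the ATP-gated channel of the same neurons, was at 433 to 527 CPM (median 470.0) in DRG and 0.664 to 1.95 CPM (median 1.21) in skin. Sst, the somatostatin that itch neurons carry, was at 5.46 to 32.9 CPM (median 6.59) with 3 counts in skin, highest in DRG control 5. Nppb, the peptide that itch neurons release, was nearer between the tissues, at 5.67 to 11.2 CPM (median 9.18) in DRG and 0.239 to 5.71 CPM (median 2.54) in skin (log2 difference -1.71 ± 0.60 SE, BH-adjusted p = 0.0046, edgeR QL). Ntrk3, the neurotrophin-3 receptor of touch and position sense neurons, was at 120.0 to 186 CPM (median 149) in DRG and 6.88 to 8.81 CPM (median 8.49) in skin. Pvalb, a calcium buffer of proprioceptors that fast muscle also makes, was higher in skin at 49.4 to 266 CPM (median 88.6) than in DRG at 34.3 to 60.9 CPM (median 42), with its highest value in skin control 2, the library with the most muscle RNA. Maf was the other gene of the touch list higher in skin (log2 difference 0.86 ± 0.15 SE, BH-adjusted p = 5.2e-05, edgeR QL).

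Glial genes lay with the neurons. 15 of 17 myelinating Schwann cell genes and 7 of 12 satellite glia genes were over 4-fold higher in DRG. Mbp, myelin basic protein, was at 2259.6 to 4001 CPM (median 3587) in DRG and 29.7 to 54.1 CPM (median 38.9) in skin (log2 difference -6.42 ± 0.17 SE, BH-adjusted p = 5.1e-12, edgeR QL), and among the ganglia it was lowest in DRG control 3. Fabp7, a fatty acid binding protein of satellite glia, was at 154 to 249.7 CPM (median 192) in DRG and 0.26 to 1.39 CPM (median 0.353) in skin. Sox10, the factor that all peripheral glia and pigment cells use, was at 60.8 to 97.8 CPM (median 80.8) and 3.42 to 7.36 CPM (median 4.39). Gja1, the gap junction protein connexin 43, was over 4-fold higher in skin at 619 to 2259 CPM (median 1809) than in DRG at 53.7 to 78.7 CPM (median 59.8), and Apoe was higher in skin at 4599 to 6559 CPM (median 5942) than in DRG at 1849 to 2686 CPM (median 2145). On the TPM scale Apoe was not called (limma on log2(TPM + 1), log2 difference 0.61, BH-adjusted p = 0.0544). Summed over the list, satellite glia genes were at 6506 to 8834 CPM (median 8634) in skin and 4303 to 5421 CPM (median 4638) in DRG. Glul, glutamine synthetase, overlapped and was not called (log2 difference 0.11 ± 0.12 SE, BH-adjusted p = 0.43, edgeR QL). Fa2h, which makes the hydroxylated lipids of both myelin and the skin barrier, was higher in skin (log2 difference 1.71 ± 0.25 SE, BH-adjusted p = 1.7e-05, edgeR QL).

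Markers of neighbouring tissue were read in the ganglia, those of spinal cord most in DRG control 5. Summed spinal cord markers were at 747 CPM in that library and 54.6 to 116 CPM in the other ganglia, overlapping the 37.8 to 65.1 CPM of skin. Of 18 spinal cord markers, 10 passed the filter on low counts and 3 were over 4-fold higher in DRG. Gfap, the filament of astrocytes that some peripheral glia also make, was at 273 CPM in DRG control 5 and at 2.6 to 41.6 CPM in the other DRG libraries. Mobp, an oligodendrocyte myelin gene, was at 213 CPM there and at 7.41 to 32.8 CPM elsewhere in DRG, and the astrocyte glutamate transporter Slc1a2 at 270.2 and 8.81 to 10.9 CPM. Chat, the enzyme that makes acetylcholine in motor neurons, was over 4-fold higher in skin (0.715 to 3.47 CPM, median 1.0) and near 0 in DRG (0 to 0.483 CPM, median 0.0194). Without the 3 libraries that stood apart, 3 spinal cord members were over 4-fold higher in DRG. Of 10 meningeal genes 3 were over 4-fold higher in DRG and 2 in skin. The meningeal gene Ptgds was at 294 to 1779 CPM (median 634) in DRG and 2.14 to 55.4 CPM (median 8.98) in skin, highest in DRG control 6. Of 8 neutrophil genes tested, Ngp, Camp, Retnlg and Mmp8 were over 4-fold higher in DRG and Cxcr2 in skin. Ngp, a granule protein that developing neutrophils make, was at 5.27 to 37.2 CPM (median 10.2) in DRG and 0 to 0.131 CPM (median 0) in skin, while S100a8 was at 2.09 to 95.7 CPM (median 11.6) in skin and 5.64 to 27.3 CPM (median 8.19) in DRG, not called (log2 difference 1.13 ± 0.79 SE, BH-adjusted p = 0.16, edgeR QL). Skin control 1 held the highest S100a8 value, and without it the log2 difference was -0.02. Without the 3 libraries that stood apart S100a8 was called higher in skin (log2 difference 1.74, edgeR QL, BH-adjusted p = 0.037). The 4 globin genes were over 4-fold higher in DRG, a count that was 2 when DRG control 1 or 6 or skin control 4, 5 or 6 was left out, and their sum with other red cell genes was 212 to 580.5 CPM (median 237) in DRG and 72.4 to 112 CPM (median 88) in skin. How much of the DRG profile came from blood, marrow or meninges was not tested. Of 6 mammary genes 1 was tested and over 4-fold higher in skin, Elf5, also a gene of skin glands and follicles, at 9.05 to 82.2 CPM (median 61.1) in skin. Csn3, a milk casein, did not pass the filter, with 0.16 to 4.05 CPM in skin and no counts in DRG, and the list's count became 2 without skin control 2 or any 1 of the DRG libraries.

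Ion channels carried the electrical identity of the ganglion. Of 14 sodium channel genes, 10 were over 4-fold higher in DRG and 0 in skin, of 17 calcium channel genes 9 and 1, and of 30 potassium and HCN genes 27 and 1. Scn9a, Scn10a and Scn11a encode Nav1.7, Nav1.8 and Nav1.9, the channels that set nociceptor firing. Scn10a was at 1079 to 1259 CPM (median 1192) in DRG and 0 to 0.226 CPM (median 0.0468) in skin (log2 difference -13.93 ± 0.30 SE, BH-adjusted p = 2.9e-11, edgeR QL). Scn9a was at 412 to 732 CPM (median 565) in DRG with 1 count in all skin libraries, and Scn11a at 493 to 685 CPM (median 594) with 7 counts. Scn7a, a sodium-sensing relative found in Schwann cells and neurons, was at 502 to 943 CPM (median 749.5) in DRG and 8.32 to 19.9 CPM (median 13.1) in skin. Scn4a, the sodium channel of muscle, was the one higher in skin, at 13.6 to 47.7 CPM (median 18.1) against 6.61 to 9.07 CPM (median 8.04), and was highest in skin control 2. Scn3a was higher in DRG without passing 4-fold (log2 difference -1.55 ± 0.27 SE, BH-adjusted p = 0.00011, edgeR QL).

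Calcium channels divided in the same way between nerve and muscle. Cacna1b, the N-type channel that triggers transmitter release, was at 149.7 to 193 CPM (median 162) in DRG and 0 to 0.372 CPM (median 0.039) in skin. Cacna1s, the voltage sensor of muscle, was at 28.1 to 95.1 CPM (median 36.5) in skin and 0.547 to 1.97 CPM (median 1.07) in DRG, highest in skin control 2. Cacna2d1 and Cacna2d2 encode the alpha2-delta subunits that gabapentin binds. Cacna2d1 was at 229 to 373 CPM (median 296) in DRG and 18.7 to 58.9 CPM (median 24.2) in skin (log2 difference -3.29 ± 0.28 SE, BH-adjusted p = 1.6e-07, edgeR QL). Cacna2d2 was at 111 to 172 CPM (median 128) in DRG and 5.11 to 6.48 CPM (median 5.61) in skin (log2 difference -4.56 ± 0.11 SE, BH-adjusted p = 1.3e-12, edgeR QL). Both sets of libraries were apart, yet skin kept a readable level of either gene. Cacna2d3 was at 47.1 to 59.3 CPM (median 49.9) and 1.3 to 6.89 CPM (median 5.0), while Cacna2d4 was low in both (0.103 to 0.763 CPM, median 0.438 and 0.199 to 1.72 CPM, median 1.16) and higher in skin (log2 difference 1.30 ± 0.48 SE, BH-adjusted p = 0.019, edgeR QL), a call lost with limma on log2(TPM + 0.1) at a BH-adjusted p of 0.0504. Cacna1g, a T-type channel, was not called over all libraries (log2 difference -0.10 ± 0.62 SE, BH-adjusted p = 0.88, edgeR QL), but DRG control 5 stood at 37.4 CPM, with 2.56 to 5.83 CPM in the other ganglia, and without that library Cacna1g was higher in skin (log2 difference 1.19, edgeR QL, BH-adjusted p = 0.004).

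Potassium channels were almost all on the DRG side. Kcnq1, the channel of epithelia and heart, was the member over 4-fold higher in skin (2.89 to 8.46 CPM, median 7.29 against 0.614 to 1.33 CPM, median 0.77). Kcna1 and Kcna2, which flank the nodes of myelinated fibres, were at 496 to 644 CPM (median 623) and 502 to 664 CPM (median 613) in DRG and at 5.25 to 17.4 CPM (median 6.07) and 4.12 to 11.8 CPM (median 5.61) in skin. Kcnh7, among the largest differences towards DRG, was at 117 to 216 CPM (median 163) with no counts in skin. Kcnk2, the mechanically gated TREK-1, overlapped between the tissues at 15.8 to 23.7 CPM (median 19.4) in DRG and 10.9 to 24.9 CPM (median 20.7) in skin, and was not called (log2 difference -0.04 ± 0.19 SE, BH-adjusted p = 0.82, edgeR QL).

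TRP channels, which sense temperature, irritants and divalent ions, split between the tissues. Of 19 tested, 11 were over 4-fold higher in DRG and 5 in skin. Trpv1, the capsaicin and heat receptor, was at 119 to 160.2 CPM (median 140.1) in DRG and 0.658 to 1.63 CPM (median 1.05) in skin (log2 difference -6.96 ± 0.20 SE, BH-adjusted p = 4.9e-12, edgeR QL). Trpa1, the receptor for mustard oil and other irritants, was at 101 to 149 CPM (median 109.7) with no counts in skin, at least 12412-fold higher in DRG. Trpm8, the cold and menthol receptor, was at 24.1 to 34.2 CPM (median 30.4) in DRG and 0 to 0.967 CPM (median 0.621) in skin. The heat channel Trpm3 was at 113 to 133 CPM (median 117) and 1.07 to 1.83 CPM (median 1.51). RNA of these 4 channels was thus found in the ganglion and hardly in skin. Trpv3, the warmth channel of keratinocytes, was at 63.3 to 197 CPM (median 162) in skin and 0.822 to 1.81 CPM (median 1.21) in DRG (log2 difference 6.93 ± 0.29 SE, BH-adjusted p = 2.7e-10, edgeR QL), lowest in skin control 2. Trpv4, activated by warmth and swelling, was at 15.9 to 27.2 CPM (median 19.3) and 1.57 to 3.24 CPM (median 1.85). Trpv6, a calcium uptake channel, was at 19.5 to 74.3 CPM (median 62.6) in skin and 0 to 0.371 CPM (median 0) in DRG. Trpm1, a gene of pigment cells, ranged over 0.738 to 127 CPM (median 14.5) in skin, highest in skin control 6, the library with the most pigment RNA. Trpm6, a magnesium channel, was the fifth on the skin side (14 to 35.7 CPM, median 31.4 against 3.64 to 6.03 CPM, median 5.14). Trpm7, a channel kinase found in most cells, was shared and higher in skin by a small margin (log2 difference 0.49 ± 0.09 SE, BH-adjusted p = 0.00019, edgeR QL).

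**Figure D3:**
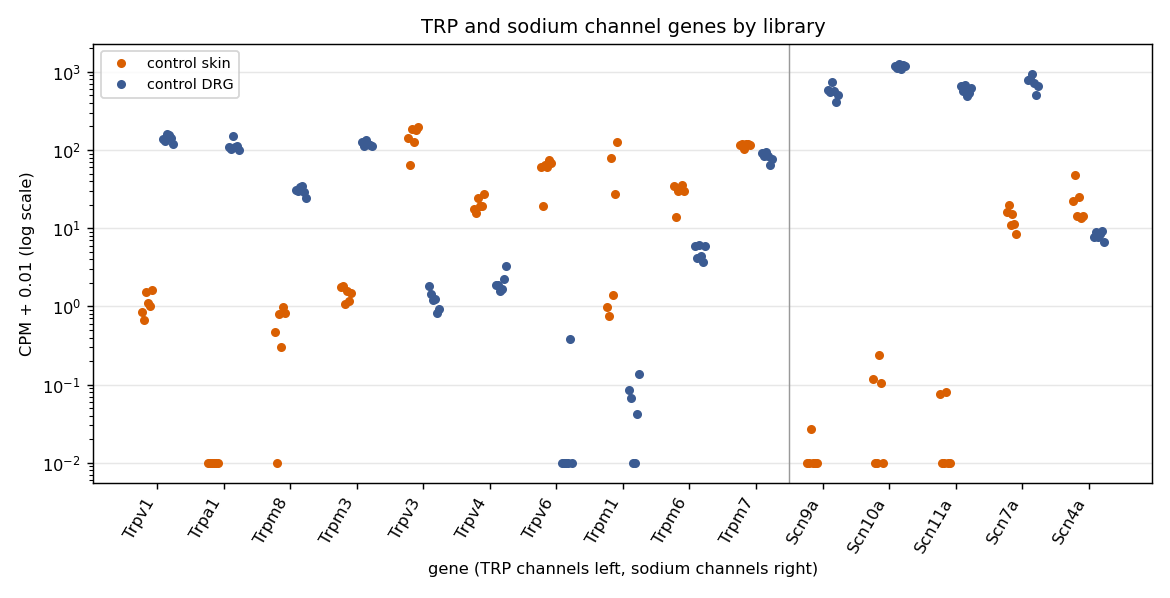
TMM-normalised CPM (log axis, 0.01 CPM added) of TRP and sodium channel genes in each of 6 control skin and 6 control DRG libraries, one point per library. Trpv3, Trpv6 and Trpm1 lie higher in skin, while Trpv1, Trpa1 and Scn9a to Scn11a lie at 101 CPM or more in DRG, with every skin library under 2 CPM.

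Mechanical and acid sensors divided by tissue within one family, with 5 of 9 tested over 4-fold higher in DRG and 1 in skin. Piezo1, the pressure channel of many cell types, was over 4-fold higher in skin at 141 to 210.0 CPM (median 201) than in DRG at 11.6 to 25.1 CPM (median 15.7) (log2 difference 3.56 ± 0.19 SE, BH-adjusted p = 1.1e-09, edgeR QL). Piezo2, the channel of touch and position sense, was at 486 to 571 CPM (median 504) in DRG and 2.44 to 5.96 CPM (median 3.93) in skin (log2 difference -7.03 ± 0.23 SE, BH-adjusted p = 2.8e-11, edgeR QL). The acid-sensing channels Asic1, Asic2 and Asic3 were over 4-fold higher in DRG, with Asic3 at 65.7 to 102 CPM (median 71.6) against 0.0979 to 0.347 CPM (median 0.29). Purinergic receptors were less divided: of 14, P2rx3 and P2rx6 were over 4-fold higher in DRG and P2ry4 in skin (8.06 to 41.3 CPM, median 13.5 against 0 to 0.116 CPM, median 0.0588), with a median log2 difference of -0.67.

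Neuropeptide RNA lay mostly on the DRG side, while several of the receptors were shared. Of 25 neuropeptide genes, 17 were tested, 11 were over 4-fold higher in DRG and 1, Adm2, in skin. Calca, which encodes the vasodilator CGRP-alpha, was at 1029.7 to 1422 CPM (median 1217) in DRG and 0 to 0.521 CPM (median 0.145) in skin (log2 difference -12.53 ± 0.41 SE, BH-adjusted p = 1.6e-10, edgeR QL). Calcb, which encodes CGRP-beta, was at 162 to 208 CPM (median 178) in DRG but kept 15.7 to 29.6 CPM (median 23.9) in skin (log2 difference -2.95 ± 0.13 SE, BH-adjusted p = 1.8e-10, edgeR QL). Per length, Calcb was the higher of the pair in skin (mean TPM 16.6 against 0.357) and Calca in DRG (mean TPM 2921 against 310.1). Tac1, which encodes substance P, was at 154 to 236 CPM (median 179) in DRG and 0 to 0.279 CPM (median 0.164) in skin. Adcyap1, the vasodilator PACAP, was at 74.4 to 120.1 CPM (median 92.3) with 2 counts in skin. The satiety peptide gene Cartpt was at 15.6 to 28.7 CPM (median 23.5) with no counts in skin. Npy and Adm were called higher in skin. Npy, the peptide of sympathetic fibres, was at 1.97 to 9.03 CPM (median 7.51) in skin and 0.0766 to 3.9 CPM (median 0.218) in DRG. Adm, the vasodilator adrenomedullin, was at 5.58 to 9.23 CPM (median 7.3) and 1.34 to 2.14 CPM (median 1.6). Penk, the enkephalin precursor, was not called over all libraries (log2 difference 0.31 ± 0.60 SE, BH-adjusted p = 0.66, edgeR QL), but its highest DRG value was DRG control 5 (35 CPM), and without it Penk was higher in skin (log2 difference 1.72, edgeR QL, BH-adjusted p = 3.6e-06).

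More of the receptors for these peptides were higher in DRG than in skin, though some were read in both. Of 41 listed, 35 were tested, 17 were over 4-fold higher in DRG and 2 in skin, Vipr1 and Mc5r. At any size 23 were called higher in DRG and 7 in skin, with a median log2 difference of -2.16. Calcrl and Ramp1 together form the CGRP receptor. Calcrl overlapped, at 9.22 to 22.6 CPM (median 12.1) in skin and 13 to 23.2 CPM (median 19.2) in DRG, and was not called (log2 difference -0.48 ± 0.22 SE, BH-adjusted p = 0.0503, edgeR QL). Without skin control 2 it was called higher in DRG (log2 difference -0.68, edgeR QL, BH-adjusted p = 0.0016), and likewise without DRG control 5 (log2 difference -0.57, edgeR QL, BH-adjusted p = 0.027) and with DESeq2 (BH-adjusted p = 0.038). Ramp1 was higher in skin at 6.31 to 15.9 CPM (median 11.1) than in DRG at 1.61 to 8.51 CPM (median 3.82) (log2 difference 1.40 ± 0.43 SE, BH-adjusted p = 0.0052, edgeR QL), and Ramp2, which turns Calcrl into an adrenomedullin receptor, was higher in DRG (log2 difference -1.14 ± 0.15 SE, BH-adjusted p = 8.5e-06, edgeR QL). Tacr1, the substance P receptor, was low in both and higher in skin (1.5 to 3.64 CPM, median 2.25 against 0.157 to 2.16 CPM, median 0.321). The PACAP receptor Adcyap1r1 was not called (log2 difference -0.56 ± 0.57 SE, BH-adjusted p = 0.39, edgeR QL), and without DRG control 5 its log2 difference was 0.61 (edgeR QL, BH-adjusted p = 0.0547). Opioid receptors were on the DRG side: Oprm1, the morphine receptor, was at 7.54 to 11.5 CPM (median 8.61) with no counts in skin. Cckar, a cholecystokinin receptor, was at 19.2 to 24.5 CPM (median 20.7) with no counts in skin. Vipr1 was at 7.05 to 13.1 CPM (median 9.59) in skin and 0.0313 to 0.342 CPM (median 0.135) in DRG, and Mc5r, the melanocortin receptor of sebaceous cells, at 50.3 to 67.6 CPM (median 58.7) and 0.581 to 1.21 CPM (median 0.875).

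Neurotrophic factors keep sensory neurons alive and shape their endings, with each neuron class using its own receptor. Of 15 receptors, 10 were over 4-fold higher in DRG and 0 in skin. Ntrk2, used by BDNF and neurotrophin-4, was at 226 to 282 CPM (median 251) in DRG and 25.6 to 40.3 CPM (median 34.9) in skin (log2 difference -2.89 ± 0.11 SE, BH-adjusted p = 3.5e-11, edgeR QL). Ret, the shared signalling receptor of the GDNF family, was at 611 to 767 CPM (median 697) in DRG but still at 22.1 to 89.8 CPM (median 74.1) in skin, lowest in skin control 2. Among 15 ligands tested, 2 were over 4-fold higher in skin and 4 in DRG. Ntf5, which encodes neurotrophin-4, was at 5.26 to 7.38 CPM (median 7.07) in skin with no counts in DRG, at least 771-fold higher. Nrtn, which encodes neurturin, was at 5.92 to 15.8 CPM (median 8.55) in skin and 0.268 to 0.838 CPM (median 0.57) in DRG (log2 difference 4.11 ± 0.29 SE, BH-adjusted p = 5.1e-08, edgeR QL). Ntf3 was not called (log2 difference 0.50 ± 0.30 SE, BH-adjusted p = 0.17, edgeR QL). Bdnf was on the DRG side, at 25.6 to 35.6 CPM (median 31) against 0.477 to 1.65 CPM (median 1.07), as was Cntf, the Schwann cell factor, at 51.5 to 77.2 CPM (median 61) against 0.568 to 1.18 CPM (median 0.983).

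Taking ligands with their receptors, 57 pairs were listed and in 48 both partners were tested. Of 48 ligands tested 13 were over 4-fold higher in skin and 11 in DRG, whereas of 47 receptors tested 4 were over 4-fold higher in skin and 17 in DRG. By the BH call alone, 14 pairs had the ligand higher in skin and the receptor in DRG, 3 the reverse, 12 had both in skin and 6 both in DRG. Over all genes tested, 41.4% were called higher in skin and 42% in DRG, so many pairs fall in each combination without any link between partners. Whether the pair counts differ from that was not tested. With both partners over 4-fold, 2 pairs ran from skin to DRG, Ntf5 with Ntrk2 and Nrtn with Gfra2, and 0 ran from DRG to skin by glmTreat. Gfra2, the neurturin receptor, was at 81.9 to 112 CPM (median 104) in DRG and 7.54 to 8.91 CPM (median 8.09) in skin. The 3 reverse pairs by the BH call were Tac1 with Tacr1, Nppb with Npr1 and Nrg1 with Erbb3. Nrg1, the axonal signal to Schwann cells, was at 109.6 to 142 CPM (median 125) in DRG and 1.77 to 12.7 CPM (median 8.3) in skin, and Erbb3 was at 215 to 261 CPM (median 234) in skin and 67.5 to 102 CPM (median 78.1) in DRG. Bdnf with Ntrk2, Gal with Galr1, Sst with Sstr2 and Pomc with Oprm1 were over 4-fold higher in DRG on both sides, and Il18 with Il18r1, Ccl20 with Ccr6 and Tgfa with Egfr in skin on both sides. Pairs share genes, so these counts are not independent, and the pairs were chosen from known biology. Without the 3 libraries that stood apart, 4 pairs ran from skin to DRG over 4-fold, 5 were within skin and 3 within DRG.

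**Figure D4:**
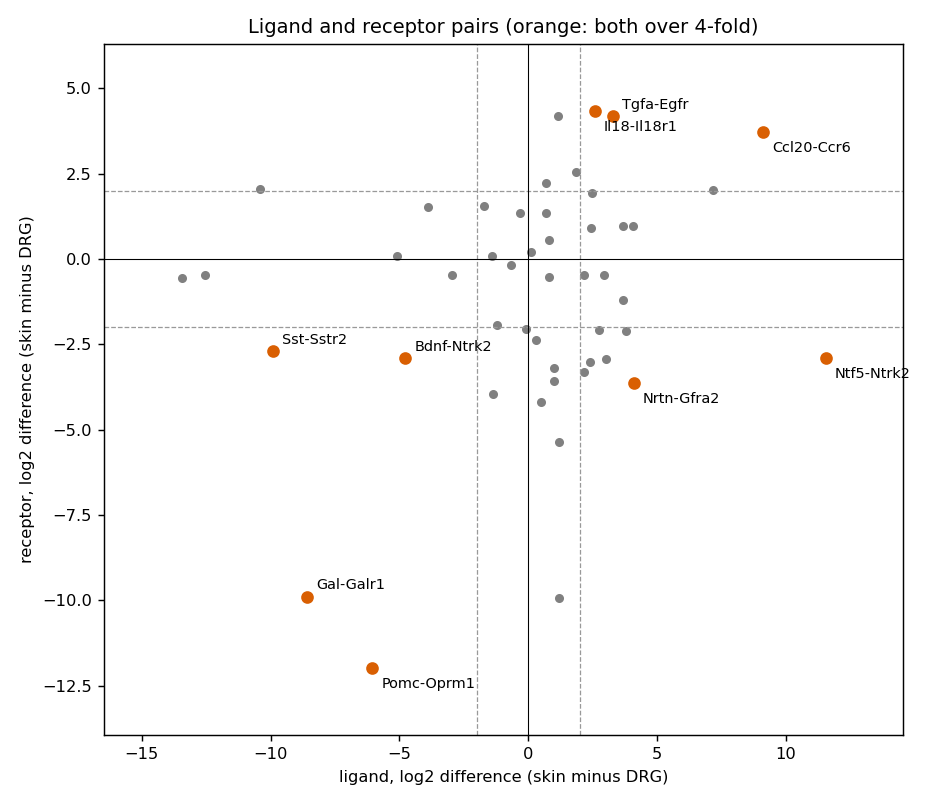
Log2 difference (skin minus DRG) of the ligand against that of the receptor for 48 pairs with both partners tested, with dashed lines at 4-fold. The lower right quadrant, ligand higher in skin and receptor higher in DRG, holds Ntf5 with Ntrk2 and Nrtn with Gfra2 in orange, the pairs with both partners over 4-fold by glmTreat, while grey points beyond both lines did not pass that test for both partners.

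Alarm and itch cytokines were on the skin side, and more of their receptors were called higher in skin than in DRG. 6 of 8 cytokines tested were over 4-fold higher in skin and 0 in DRG, and 5 more, Il31, Il4, Il13, Osm and Il17a, were too low to test. Il1f9, an interleukin of the epidermis, was at 24.2 to 66.6 CPM (median 41.5) in skin and 0.145 to 0.559 CPM (median 0.271) in DRG (log2 difference 7.18 ± 0.32 SE, BH-adjusted p = 1.1e-09, edgeR QL). Tslp, the keratinocyte signal of atopic itch, was at 0.49 to 1.75 CPM (median 1.18) in skin and 0.0483 to 0.298 CPM (median 0.10) in DRG. Il33 overlapped and was not called (log2 difference 0.70 ± 0.45 SE, BH-adjusted p = 0.11, edgeR QL), but it was called higher in skin without skin control 3 (log2 difference 0.90, edgeR QL, BH-adjusted p = 0.026) or skin control 5 (log2 difference 0.87, edgeR QL, BH-adjusted p = 0.0476). Of 12 receptors of these cytokines, 4 were over 4-fold higher in skin and 0 in DRG. At any size 8 were called higher in skin and 2 in DRG, with a median log2 difference of 1.91. Il31ra and Osmr form the receptor for interleukin 31, which drives itch. Il31ra was at 44.7 to 75.2 CPM (median 55.3) in DRG and at 13.5 to 34.8 CPM (median 25) in skin (log2 difference -1.19 ± 0.26 SE, BH-adjusted p = 0.00039, edgeR QL). Osmr was at 65.9 to 92.3 CPM (median 71.7) in DRG and 53 to 94.9 CPM (median 61.6) in skin, overlapping, and was not called (log2 difference -0.15 ± 0.17 SE, BH-adjusted p = 0.4, edgeR QL), but on the TPM scale it was called higher in DRG (limma on log2(TPM + 1), log2 difference -0.36, BH-adjusted p = 0.0461). Crlf2, the Tslp receptor subunit, was low in both tissues and higher in DRG by a small margin (log2 difference -0.48 ± 0.17 SE, BH-adjusted p = 0.027, edgeR QL), a call that was lost without DRG control 5, skin control 3, 5 or 6 (edgeR QL, BH-adjusted p up to 0.064).

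Chemokines and their receptors lay more on the skin side. 17 of 26 chemokines and 10 of 19 chemokine receptors tested were over 4-fold higher in skin and 0 and 0 in DRG by glmTreat. Cxcl14, made by keratinocytes, was at 121 to 270.3 CPM (median 222) in skin and 0.427 to 4.29 CPM (median 0.723) in DRG. Cxcl12, a stromal chemokine, was at 179.8 to 358 CPM (median 252) and 27.6 to 66.3 CPM (median 47). Ccl20, which draws Ccr6-bearing cells, was at 1.16 to 21 CPM (median 14.8) in skin, lowest in skin control 2, and 0 to 0.0784 CPM (median 0) in DRG. Cx3cl1, fractalkine, was not called over all libraries (log2 difference -0.08 ± 0.55 SE, BH-adjusted p = 0.9, edgeR QL), with DRG control 5 at 34.3 CPM, with 3.08 to 5.36 CPM in the other ganglia. Without that library Cx3cl1 was higher in skin (log2 difference 1.08, edgeR QL, BH-adjusted p = 0.00073).

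Growth factors of the EGF family had members higher in skin and members higher in DRG. 6 of 11 ligands were over 4-fold higher in skin and 2, Nrg1 and Nrg3, in DRG. Ereg, epiregulin, was at 60.5 to 143 CPM (median 109.9) in skin with no counts in DRG, at least 11915-fold higher. Nrg3 was at 28.3 to 39.5 CPM (median 32.9) in DRG with no counts in skin. Among the 4 receptors, 2 were over 4-fold higher in skin and 1 in DRG. At any size 3 were called higher in skin and 1 in DRG. Erbb3, the receptor paired here with Nrg1, was called higher in skin without passing 4-fold (log2 difference 1.54), so ligand and receptor did not share a side. Egfr was at 109.7 to 177 CPM (median 169) in skin and 6.49 to 12.7 CPM (median 7.2) in DRG, whereas Erbb4 was over 4-fold higher in DRG (4.41 to 7.45 CPM, median 6.23 against 0.204 to 0.558 CPM, median 0.253).

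Guidance genes, which steer growing axons and pattern epithelia, had members on either side. Of 22 ligands 7 were over 4-fold higher in skin and 2 in DRG, and of 32 receptors 8 and 13. Slit1, a repellent ligand, was at 164 to 229.6 CPM (median 187) in DRG and 0 to 0.239 CPM (median 0.039) in skin, and Slit2 was higher in DRG without passing 4-fold (log2 difference -1.37 ± 0.14 SE, BH-adjusted p = 4.5e-07, edgeR QL). Sema3a, the repellent of nociceptor axons, was at 5.62 to 10.2 CPM (median 7.0) in skin and 0.427 to 1.68 CPM (median 1.14) in DRG, and its receptor subunit Nrp1 was higher in DRG (log2 difference -2.08 ± 0.14 SE, BH-adjusted p = 6.8e-09, edgeR QL). Plxnc1, a semaphorin receptor of non-peptidergic neurons, was at 333 to 472 CPM (median 382) in DRG and 6.35 to 10.5 CPM (median 7.45) in skin. The ephrin receptor Epha1 was at 163 to 235 CPM (median 203) in skin and 0 to 0.21 CPM (median 0.119) in DRG.

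Genes linked to rosacea lay more on the skin side, while Toll-like receptors were less divided. Of 12 genes listed for rosacea, 5 were over 4-fold higher in skin and 1, Camp, in DRG. At any size 8 were called higher in skin and 2 in DRG. Klk5, the protease that cuts the cathelicidin peptide, was at 56 to 101 CPM (median 66.4) in skin and 3.68 to 4.34 CPM (median 3.97) in DRG (log2 difference 4.15 ± 0.13 SE, BH-adjusted p = 1.9e-11, edgeR QL). F2rl1, the protease-activated receptor PAR2, was at 56.8 to 111 CPM (median 95.4) and 1.69 to 2.79 CPM (median 2.39). Camp, which encodes mouse cathelicidin, was at 0 to 0.12 CPM (median 0.0621) in control skin and 1.27 to 8.34 CPM (median 2.32) in DRG, highest in DRG control 6, where Ngp was also highest. Of 11 Toll-like receptors tested, 1 was over 4-fold higher in skin and 0 in DRG, under the background share. At any size 7 were called higher in skin and 1 in DRG. Summed over the list they overlapped, at 37.3 to 72 CPM in skin and 32.4 to 51.8 CPM in DRG. Tlr2, a receptor for bacterial lipoproteins, was higher in skin at a low level (2.21 to 6.7 CPM, median 3.97 against 0.886 to 1.95 CPM, median 1.15). Vegfa was higher in DRG (log2 difference -0.67 ± 0.08 SE, BH-adjusted p = 3.5e-06, edgeR QL). Endothelin Edn1 was at 18.7 to 36.3 CPM (median 33.5) in skin and 1.16 to 3.56 CPM (median 2.36) in DRG, and its receptor Ednra was higher in skin by a smaller margin (log2 difference 0.98 ± 0.06 SE, BH-adjusted p = 5.7e-08, edgeR QL).

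HOX genes, which record position along the body axis, were present in both tissues and gave no common direction. Of 32 tested, 2 were over 4-fold higher in skin and 3 in DRG, with a median log2 difference of 0.05. Hoxc13, which drives hair keratins, was at 22.9 to 155 CPM (median 114) in skin with 2 counts in DRG, lowest in skin control 2. Hoxd1 was at 11.7 to 17.9 CPM (median 15.1) in DRG and 0 to 0.136 CPM (median 0.0218) in skin. Hoxa10 and Hoxd11, of the posterior end of their clusters, were over 4-fold higher in DRG. Libraries of the ganglia differed among themselves in these genes: Hoxd10 was at 0.376 CPM in DRG control 6 and at 2.11 to 4.54 CPM in the others, and Hoxd11 at 0.094 and 1.51 to 3.13 CPM. Hoxb8 was at 50.3 CPM in DRG control 5 and at 4.63 to 7.22 CPM in the others. Over all libraries Hoxb8 was not called (log2 difference -0.26 ± 0.55 SE, BH-adjusted p = 0.68, edgeR QL), and without DRG control 5 it was higher in skin (log2 difference 0.94, edgeR QL, BH-adjusted p = 0.00034). Hoxa10 did not share the drop in DRG control 6 to the same degree, at 8.52 CPM against 9.21 to 16.5 CPM. The labels do not say which ganglia were taken, and whether segment moves with these values was not tested.

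**Figure D5:**
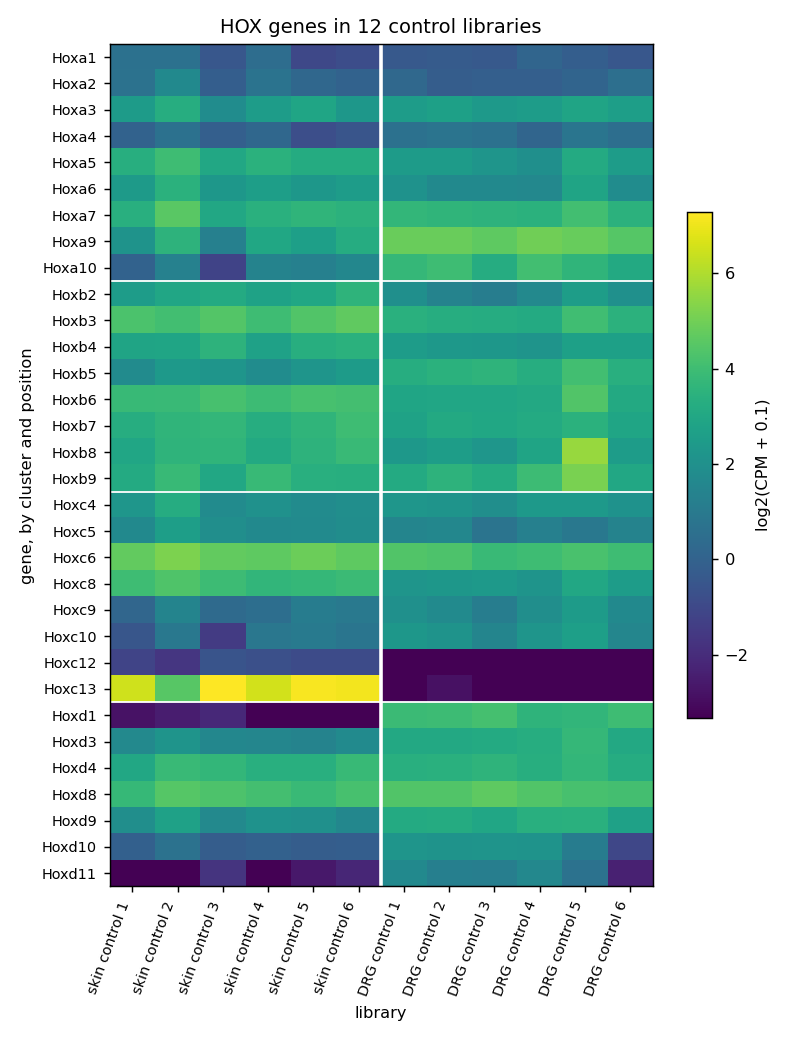
TMM-normalised CPM (colour, log2 of CPM plus 0.1) of the tested HOX genes, ordered by cluster and position within it, in 12 control libraries. Hoxc13 is high in skin alone, Hoxd1 in DRG alone, and DRG control 6 has low Hoxd10 and Hoxd11 while DRG control 5 has high Hoxb8.

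Genes used as references also differed between these tissues. None of 15 passed 4-fold by glmTreat, but 8 were called higher in skin and 6 in DRG by edgeR at a BH-adjusted p under 0.05. Actb was at 1167 to 1977 CPM (median 1829.7) in skin and 934 to 1189 CPM (median 1024) in DRG (log2 difference 0.74 ± 0.12 SE, BH-adjusted p = 4.9e-05, edgeR QL). Gapdh ran the other way, at 217 to 349 CPM (median 254) and 419 to 683 CPM (median 459.9) (log2 difference -0.88 ± 0.15 SE, BH-adjusted p = 6e-05, edgeR QL). The ribosomal Rplp0 and the MHC light chain B2m were higher in skin by log2 differences of 2.08 and 2.18. Gusb was the member not called, at 16.5 to 26.7 CPM (median 19.9) in skin and 18 to 21 CPM (median 19.8) in DRG (log2 difference 0.06 ± 0.11 SE, BH-adjusted p = 0.64, edgeR QL). The directions of the other 14 were the same under every scaling tried.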

How the data were processed

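RNA was sequenced from control skin and control DRG (6 libraries each). The deposited table holds, per the file headers, read counts, FPKM and TPM for 45777 genes. Counts were made by the authors with tools that the submitters' processing notes name without roles (bcl2fastq 2.20.0, Trimmomatic, HISAT2 2.1.0 and StringTie 2.1.3b, genome mm10). The way reads were assigned, including the use of strand, has no statement in the labels, so a gene and an overlapping or antisense partner cannot be told apart. FPKM and TPM were computed by the authors, per the file headers; the deposited FPKM were not used.

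Counts were filtered with filterByExpr, scaled with TMM and tested with edgeR 4.0.16 (R 4.3.3; glmQLFit with the robust option, glmQLFTest, glmTreat against 4-fold), skin control against DRG control, with no covariate, and p-values were adjusted by Benjamini-Hochberg over 20448 genes. Totals were 45238735 to 64547448 counts in skin and 52273676 to 63544026 in DRG. TPM served for levels between genes and for the limits of 1 and 0.1 TPM. A fold against a tissue with no counts was taken against 3 counts over its 6 libraries. 50 lists with 782 genes and 57 ligand and receptor pairs were used; members and lists were chosen with earlier results of these data known.

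Named genes are the 10 largest differences over 4-fold in each direction with at least 20 CPM in the higher tissue, the 10 highest by TPM in each tissue, up to 6 members of each list with the highest CPM and those over 4-fold against their list, all genes of the pairs and of the sodium, calcium and TRP channel, neurotrophic, neuropeptide and control gene lists, and the 10 with the widest range within a tissue. Predicted models were left out, and some named genes are not reported here.

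Replicate numbers in the labels were not taken as pairs. No 2 libraries of a tissue agreed within sampling noise: the lowest chi-square per gene over 30 pairs within a tissue was 10.8. Alternatives were RLE and upper-quartile factors, library size alone, no filter, 1 CPM in 6 libraries, DESeq2 1.42.0, no robust option, a replicate block, limma 3.58.1 on log2(TPM + 1) and log2(TPM + 0.1), other TPM limits and each library left out. Chosen after seeing the data were the fit without 3 libraries that stand apart and all listed promoters. On simulated counts for 20448 genes, 50 were changed at each fold and the rest were not. The test recovered 80% of genes changed 2-fold, 98% at 3-fold, 100% at 8-fold and 98% at 16-fold, with 6 of 194 calls false. The test against 4-fold passed 82% of the 8-fold and 96% of the 16-fold genes. In the data 83.3% of genes were called, so rates from a simulation with most genes unchanged cannot be taken as those of this comparison.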

Additional observations from a re-analysis of the deposited data

Results flagged for a closer look

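Each of 380 groups of 6 values (a gene named in the text or a marker list in 1 tissue, with a mean of at least 1 CPM) was checked for a library whose gap to the nearest of the others exceeds Dixon's 95% critical value. 60 groups had such a library. Chance gives about 1 in 20 groups for genes picked without regard to their values. Some genes here were named for a wide range within a tissue or after their values were seen, so the count cannot be set against that rate. Genes and lists share cells and libraries, so the groups are not independent.

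Skin control 2, the library low in hair follicle markers and high in muscle markers, stood below the other libraries of its tissue in Actb at 1167 CPM (others 1693 to 1977), Calhm4 at 0.319 CPM (others 171 to 255), Edn1 at 18.7 CPM (others 30.4 to 36.3) and Egfr at 109.7 CPM (others 156 to 177). Further low values there were Krt34 at 15.9 CPM (others 688 to 951), Krt71 at 361 CPM (others 8189 to 12615), Krt86 at 18.7 CPM (others 883 to 1252) and Ntf5 at 5.26 CPM (others 6.74 to 7.38). Low there were also Ret at 22.1 CPM (others 65.2 to 89.8), Tchhl1 at 73.8 CPM (others 1016 to 1121), Tgfa at 48.6 CPM (others 189.7 to 263) and Trpm6 at 14 CPM (others 29.4 to 35.7). The list of low values goes on with Trpv6 at 19.5 CPM (others 60.6 to 74.3), Zfp750 at 148 CPM (others 206 to 232) and summed hair follicle markers at 1354 CPM (others 36559 to 56182). It stood above them in COX1 at 17731 CPM (others 10495 to 11961), Cacna1g at 17.1 CPM (others 5.84 to 9.33), Ccr6 at 2.75 CPM (others 0.744 to 1.48) and Chat at 3.47 CPM (others 0.715 to 1.39). Further high values there were Il18 at 48.4 CPM (others 15.8 to 24.1), Kcna1 at 17.4 CPM (others 5.25 to 9.03), Klf5 at 72.7 CPM (others 37.5 to 46.3) and Krt10 at 6993 CPM (others 1436 to 2954). High there were also Ntf3 at 2.35 CPM (others 0.718 to 1.18), P2ry4 at 41.3 CPM (others 8.06 to 15.9), Prox1 at 5.86 CPM (others 2.4 to 3.63) and Pvalb at 266 CPM (others 49.4 to 129.7). The list of high values goes on with Rgs5 at 66.4 CPM (others 37.7 to 46.7), Scn3a at 7.82 CPM (others 2.47 to 3.93), Scn4a at 47.7 CPM (others 13.6 to 24.8) and Spink5 at 891 CPM (others 491 to 638). High as well were summed epidermal barrier markers at 31879.7 CPM (others 12961 to 18764).

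DRG control 5, the library high in spinal cord markers, stood below the other libraries of its tissue in Sostdc1 at 19.9 CPM (others 26.6 to 30.5). It stood above them in Adcyap1r1 at 40.6 CPM (others 4.33 to 5.02), Asic2 at 89 CPM (others 71.6 to 77), Cacna1g at 37.4 CPM (others 2.56 to 5.83) and Crlf2 at 9.51 CPM (others 4.87 to 5.51). Further high values there were Cx3cl1 at 34.3 CPM (others 3.08 to 5.36), Cxcl14 at 4.29 CPM (others 0.427 to 1.25), Gad1 at 42.5 CPM (others 0.824 to 1.19) and Gapdh at 683 CPM (others 419 to 516). High there were also Gfap at 273 CPM (others 2.6 to 41.6), Hoxb8 at 50.3 CPM (others 4.63 to 7.22), Mobp at 213 CPM (others 7.41 to 32.8) and Penk at 35 CPM (others 2.51 to 4.21). The list of high values goes on with Slc1a2 at 270.2 CPM (others 8.81 to 10.9), Sst at 32.9 CPM (others 5.46 to 7.52) and summed spinal cord markers at 747 CPM (others 54.6 to 116).

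DRG control 6, the library high in endothelial and blood genes, stood above the other libraries of its tissue in Fmod at 65 CPM (others 9.41 to 27.8), S100a8 at 27.3 CPM (others 5.64 to 12.8), Vwf at 188 CPM (others 29.4 to 57.2) and summed endothelial markers at 621 CPM (others 252 to 327).

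Skin control 1 stood above the other libraries of its tissue in S100a8 at 95.7 CPM (others 2.09 to 21.5) and summed neutrophil markers at 276 CPM (others 17.4 to 54.7). Skin control 3 stood below the other libraries of its tissue in Trpm7 at 102 CPM (others 116 to 119). Skin control 4 stood below the other libraries of its tissue in Ntrk3 at 6.88 CPM (others 8.17 to 8.81). DRG control 2 stood above the other libraries of its tissue in Acta1 at 20.9 CPM (others 1.76 to 4.66), Myh1 at 5.17 CPM (others 0 to 1.69) and summed skeletal muscle markers at 188 CPM (others 17.6 to 40.4). DRG control 3 stood above the other libraries of its tissue in Trpa1 at 149 CPM (others 101 to 112).

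What part the cell types behind these marker lists have in the values of single genes was not tested.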

How the results depend on the processing

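Of 211 genes named in the text and tested, 195 kept the same call in every alternative that gave a value. For 3, Cacna1g, Cx3cl1 and Hoxb8, the sign turned and a call appeared without DRG control 5. These 3 were not called over all libraries, so no called difference changed its direction there. With the 3 libraries that stand apart left out, the log2 difference of Cacna1g was 0.95, of Cx3cl1 1.06 and of Hoxb8 0.95; the cause was not tested. In the same fit 4 pairs, in place of 2, had the ligand over 4-fold higher in skin and the receptor in DRG, and 5, in place of 3, had both over 4-fold higher in skin. That last count was 1 with DESeq2, 1 with limma on log2(TPM + 0.1) and 0 with limma on log2(TPM + 1). The pseudocount of 1 TPM shrinks differences of low genes by construction: it gave 1252 genes over 4-fold higher in skin and 1821 in DRG, against 2494 and 3130, and 1 pair with both in DRG, against 4. TPM also moved the median log2 difference of all genes from -0.01 to -0.13 and, with 0.1 TPM, to -0.20, and turned the sign of genes near 0 that were not called, among them Itga6, Runx1, Glul, Gusb, Sostdc1 and Tyrp1. Limits of 5 and 0.1 TPM left 231 genes in skin alone and 234 in DRG alone, and limits of 1 and 0 TPM left 189 in DRG alone, against 377 and 473.

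With each library left out in turn, 8402 to 8811 genes were higher in skin and 8445 to 8950 in DRG, with 2470 to 2710 and 3095 to 3377 over 4-fold. Genes found in skin alone numbered 378 to 470 and in DRG alone 477 to 533, against 377 and 473 over all libraries. These counts ask for limits in every library, so leaving a library out can only keep or raise them. Their ranges therefore cannot show a loss. The log2 difference lay between -0.39 and 1.19 for Cacna1g, -0.27 and 1.08 for Cx3cl1 and -0.45 and 0.94 for Hoxb8, each highest without DRG control 5. Pairs with the ligand in skin and the receptor in DRG numbered 2 to 3, within skin 3 to 4 and within DRG 3 to 4.

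Counts of list members over 4-fold moved by more than 1.5 times in some settings. The filter at 1 CPM in 6 libraries, which tests fewer genes, gave 3 pigment genes, 3 T cell genes, 6 chemokine receptors and 0 Toll-like receptors in skin, and 11 neuropeptide receptors and 1 HOX gene in DRG. DESeq2 gave 3 fibroblast genes in skin and 2 red blood cell genes in DRG. With no filter 2 mammary genes passed in skin. Limma on log2(TPM + 0.1) gave 4 pigment, 3 fibroblast, 0 macrophage and 3 T cell genes, 5 chemokine receptors and 0 Toll-like receptors in skin. Limma on log2(TPM + 1) gave 2 pigment, 2 fibroblast, 0 macrophage, 5 dendritic and Langerhans cell, 2 mast cell and 1 T cell genes in skin. It also gave 3 alarm and itch cytokines and 1 of their receptors, 8 chemokines, 1 chemokine receptor and 0 Toll-like receptors in skin. In DRG it gave 2 neutrophil, 2 red blood cell, 1 spinal cord and 1 HOX genes, 5 neuropeptide receptors and 7 guidance receptors.

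Skin and DRG libraries of the same number did not deviate together (correlations of -0.0469 to 0.0867 over genes), and 2 of 6 skin libraries correlated best with their own number, a hint from the data and not the design. With the replicate block 8232 genes were higher in skin and 8426 in DRG, 2453 and 3134 over 4-fold. Among the genes named in the text, Calcrl became called with the block (log2 difference -0.53, BH-adjusted p = 0.035, edgeR QL), and the calls of Lyve1, Fmod and Gad1 were lost, with log2 differences of 0.58, -0.70 and -1.79 and BH-adjusted p of 0.083, 0.13 and 0.09. The red blood cell count became 2. Depth limits the genes with no counts in a tissue, whose folds are lower bounds.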

Other observations

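Genes with the widest range within a tissue, named by a fixed rule, showed what differed between libraries of one kind. In skin they were led by genes near 0 in skin control 2. Calhm4, a large-pore channel gene, was at 0.319 CPM there and 171 to 255 CPM in the other 5. Crisp1 was at 0.0399 and 15.5 to 81 CPM. Crisp1 did not enter the test, since the filter asks for a minimum in 6 libraries, and in all 59 untested genes were at 1 CPM or more in the 5 other skin libraries (19 of them at 20 CPM or more), so counts of skin genes leave these out. For the other libraries of either tissue the number at 1 CPM or more in the remaining 5 was 0 to 1.

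Among the genes of widest range in DRG were matrix genes. Thbs1, thrombospondin-1, was at 10.2 to 58.1 CPM (median 15.1) in DRG, with DRG control 1 and 5 at 52.8 and 58.1 CPM, and at 240.4 to 894 CPM (median 512) in skin. Prg4, the lubricin of joint and tendon surfaces, was at 5.06 to 44.9 CPM (median 25.8) in DRG, lowest in DRG control 4. Fmod, the collagen-binding fibromodulin, was at 9.41 to 65 CPM (median 22.9) in DRG, highest in DRG control 6. Gad1, which makes the transmitter GABA, was at 42.5 CPM in DRG control 5 and 0.824 to 1.19 CPM in the other ganglia.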
